A study of Procambarus virginalis with 4 samples.

Results

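Almost fully methylated genes were studied in hemocytes (blood cells that serve crustacean immunity) of the marbled crayfish *Procambarus virginalis*, a clonal, parthenogenetic species. The 2 knockdown (KD) animals had been injected with dsRNA against *Dnmt1* and the 2 control animals with dsRNA against GFP, a jellyfish gene that crayfish lack. All 4 animals thus received a dsRNA, and all were bled 28 days after injection. CpG methylation was measured by whole-genome bisulfite sequencing (WGBS), in which unmethylated cytosines are read as thymine, and the authors deposited 1 average methylation ratio per gene and animal, given here in percent. The genes were selected on the control values alone: a gene was included when both control 1 and control 2 were at 90% or more. This held for 228 of the 13478 genes in the table, or 1.69%.

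DNA methylation in invertebrates such as crayfish is found mainly in gene bodies, and many genes carry little of it. Dnmt1 is the maintenance methyltransferase, which copies the CpG methylation pattern of the old DNA strand onto the new strand after replication. When it is scarce, methylation can be diluted as cells divide. A gene close to full methylation therefore has most of its CpGs methylated in most DNA copies, and a level in between can mean fewer CpGs, fewer copies or fewer cells that carry the mark. These cannot be told apart in the averages, nor can a change within cells be told apart from a change in the proportions of hemocyte types. The table pairs its identifiers with neither names nor positions, so gene functions, hemocyte markers and the *Dnmt1* gene itself were not examined here. The sequencing depth and the number of CpGs behind each value are unknown.

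None of the 228 genes kept the level of the controls in both KD animals. Their mean level was 56.1% in KD 1 and 48.7% in KD 2, against 97.1% in control 1 and 96.8% in control 2. As group values, this was 52.4% ± 5.18 in KD animals and 96.9% ± 0.263 in controls (SD, n = 2 each). KD animals were thus lower by a difference of -44.5 percentage points, while KD 2 differed from KD 1 by -7.32 points. Because the controls chose the genes, neither the height nor the narrow spread of the control values is a result, and no test was made of this contrast.

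The KD average lay under the control average by more than 10 percentage points, the rule of the study for differential methylation, in 226 of the 228 genes. Over the whole table this share was 35.9%. The 2 exceptions were listed at 100% in both controls and at 80% in one KD animal and 100% in the other, so that each differed by exactly 10 points. In 221 genes (96.9%) both KD animals were under both controls, against 56.2% of all genes in the table. Many genes in the table carry little methylation, so genes with lower but clear control levels are the closer comparison. With both controls from 80% to under 90%, 70% to under 80% or 50% to under 70%, the first share was 99.5%, 99.1% and 97.1%. The second share was 98.6%, 98.3% and 94.8% there. A starting level of 90% or more leaves hardly any room upwards, and nothing is read from these shares. For no gene was the KD average above the control average.

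To separate the choice of genes from the measurement, genes were also chosen by a single control and compared with the other one. Control 1 alone was at 90% or more in 508 genes, and their mean was 54.8% in KD 1 and 49.3% in KD 2, against 85.8% in control 2. Control 2 alone chose 372 genes, with 55.7% in KD 1 and 49.2% in KD 2, against 90.04% in control 1. The differences from the control that had no part in the choice were -33.7 and -37.6 percentage points. They were smaller than the -44.5 points above. Without recurring values the differences were -33.2 points over 179 genes chosen by control 1 and -35.5 points over 112 genes chosen by control 2. In both choices the other control lay above both KD animals. An exact two-sided permutation test over the 3 animals gave p = 0.33 in both cases (adjusted p = 0.33 over 2 tests), and a comparison of 2 animals with 1 cannot reach a lower p.

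The choice by 1 control also shows how repeatable a level of 90% was. Of the 508 genes chosen by control 1, control 2 was at 90% or more in 228 (44.9%) and under 70% in 57 (11.2%). Of the 372 genes chosen by control 2, control 1 was at 90% or more in those same 228 (61.3%) and under 70% in 23 (6.18%). A level of 90% or more in 1 animal was thus often not matched in an animal with the same treatment. The median of the other control was still 88.4% in control 2 and 93.0% in control 1. Without recurring values, control 2 was at 90% or more in 37.4% of 179 genes and under 70% in 8 (4.47%). Control 1 was then at 90% or more in 59.8% of 112 genes and under 70% in 6 (5.36%).

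The spread of the KD levels was wide. KD 1 ranged from 0% to 100% over the 228 genes, with a median of 57.1% and quartiles of 46.2% and 67.4%. KD 2 likewise ran from 0% to 100%, with a median of 47.1% and quartiles of 38.3% and 60%. The average of both animals ran from 8.33% to 90%, with a median of 51.8% and quartiles of 44.2% and 61.1%. Most genes had thus come to lie in the middle of the scale. The average was between 30% and 70% in 201 genes, over 70% in 17 and under 30% in 10.

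The extremes were rarely shared by the KD animals. A level of 90% or more was seen in at least 1 KD animal in 9 genes, and in both in 0 genes. A level of 0% was listed for 3 genes in KD 1 and for 2 in KD 2, and no gene was at 0% in both. Both animals were at 70% or more in 7 genes and both were under 30% in 2 genes. In 110 genes one KD animal was at 50% or more and the other was under 50%, while 77 genes were at 50% or more in both and 41 were under 50% in both.

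Many of these genes carried values that recur in the table. A row was marked as recurring when at least 1 of its values, strictly between 0% and 100%, was found in 5 or more rows of the same animal. This applied to 161 of the 228 genes (70.6%), against 2766 of the 13250 other genes (20.9%). The control columns had chosen the genes, so the KD columns are the ones to compare. In KD 1, 84 of the 228 genes (36.8%) had a recurring value, against 8.09% of all rows. In KD 2, there were 116 (50.9%), against 12.1% of all rows. The most frequent such value was 50% in KD 1, found in 12 of the genes, and 40% in KD 2, found in 21 of them and in 92 rows of the table. The table does not hold the CpG numbers or depths that would tell how precise such a value is. The main measures are therefore given with and without these rows.

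Without the rows of recurring values, 67 genes remained, and the KD levels were less spread. KD 1 ranged from 35.9% to 100%, with a median of 62.3%, and KD 2 from 21.1% to 75.1%, with a median of 47.1%. The KD average ran from 29.1% to 76.7%, with a median of 53.8% and quartiles of 48.1% and 60.5%. The mean was 60.7% in KD 1 and 48.4% in KD 2, or 54.5% ± 8.71, against 95.1% ± 0.469 in controls (SD, n = 2 each). This is a difference of -40.5 percentage points, with all 67 genes over 10 points lower and 66 of them separated from both controls. The 161 genes with recurring values had 54.1% in KD 1 and 48.9% in KD 2, and the KD average ran from 8.33% to 90%. Every level of 0% in a KD animal was in these 161 genes, as were 5 of the 6 genes at 100% in a KD animal. The distribution of KD levels by class makes this visible.

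**Figure D1:**
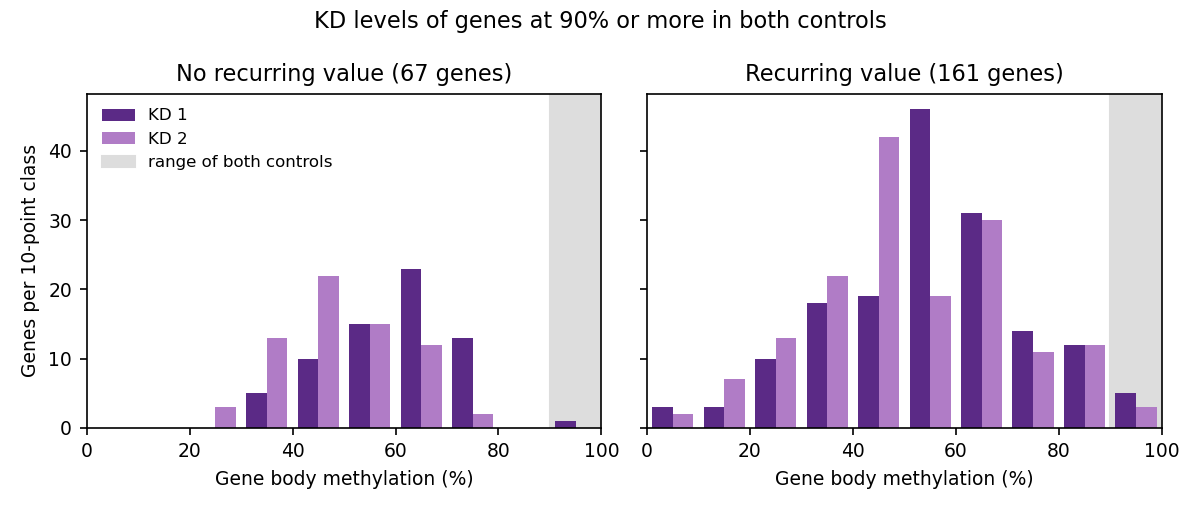
Number of genes (y axis) per 10-point class of gene body methylation in percent (x axis) in KD 1 and KD 2, for the 67 genes without and the 161 genes with recurring values; the grey zone marks the range of both controls. The genes without recurring values lie between 21.1% and 75.1% in KD 2, while those with recurring values span 0% to 100% in both KD animals.

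The genes without recurring values show the range of outcomes in single genes. A value of 100% did not count as recurring, and 11 of the 67 genes were at 100% in both controls and 13 in one control. In the 43 genes at 100% in neither control, the KD average ran from 41.5% to 72.7%. Of all 67 genes, the lowest KD average was that of the gene model WNGS01092210.1242713_0_covsplit. It had 37.1% in KD 1 and 21.1% in KD 2, against 100% in both controls, a difference of -70.9 percentage points. WNGS01021918.696861_0_covsplit followed with 35.9% in KD 1 and 38.3% in KD 2, against 100% in both controls, a difference of -62.9 points. In both models the KD animals lay far under the controls, and in the second they differed by only 2.47 points. Near the middle of the order, a gene model stood at 55.0% in KD 1 and 54.5% in KD 2, against 100% in both controls. Its KD animals were the closest of the 67 genes, with KD 2 differing from KD 1 by -0.54 points.

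At the upper end, the models that kept most of their methylation were still under the controls in at least one KD animal. The highest KD average was made up of 100% in KD 1 and 53.3% in KD 2, against 100% in both controls, and this was the only gene of the 67 whose groups were not separate. The next gene had 78.9% in KD 1 and 66.5% in KD 2, against 92.7% in control 1 and 90.4% in control 2. The one after it had 69.7% in KD 1 and 75.1% in KD 2, against 94.4% in control 1 and 93.7% in control 2. These 2 genes retained 79.4% and 77.0% of the control average. Their KD animals differed by 12.4 and 5.39 points in size. Since these genes were picked for their high KD average, nothing is read from a high level in both animals.

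The genes with recurring values reached further in both directions. The lowest KD average, 8.33%, came from 0% in KD 1 and 16.7% in KD 2, against 100% in both controls. A gene with a KD average of 17.3% had 14.6% in KD 1 and 20% in KD 2, against 95.5% in control 1 and 91.7% in control 2. It was one of the 2 genes with both KD animals under 30%. The widest gap between KD animals was 71.4 points in size, in a gene with 71.4% in KD 1 and 0% in KD 2, against 100% in both controls. Another gene had the opposite order, with 14.3% in KD 1 and 83.3% in KD 2, against 100% in both controls. The KD animals thus disagreed in either direction.

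**Figure D2:**
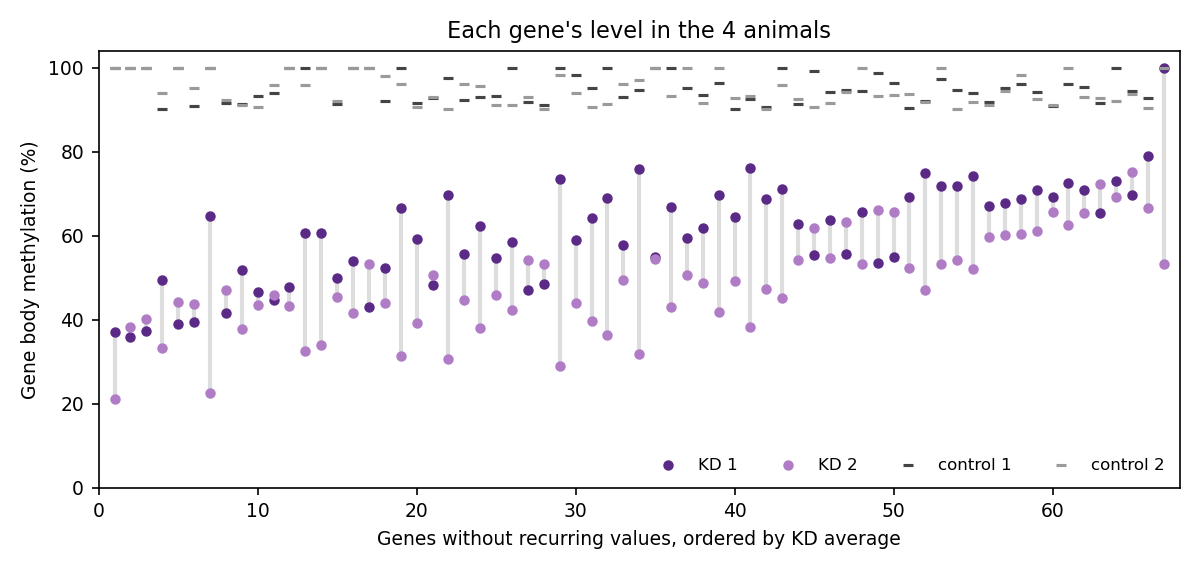
Gene body methylation in percent (y axis) of the 67 genes without recurring values, ordered by KD average (x axis), with 1 symbol for each animal and a grey bar joining KD 1 and KD 2. All control symbols are at 90% or more; KD 1 lies above KD 2 in 51 of the 67 genes, and 1 gene has KD 1 at 100%.

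The agreement between the KD animals was examined next, since neither of them had been used to choose the genes. Across the 228 genes, which share libraries and are not independent replicates, KD 1 and KD 2 were weakly related, with 0.165 for Pearson's r and 0.173 for Spearman's rho. Pearson's r was 0.231 and Spearman's rho 0.211 in the 67 genes without recurring values. In the 161 genes with them, r was 0.160 and rho 0.171. The level of a gene in one KD animal thus told little about its level in the other. Over all other genes the r was 0.865, but those genes run over the whole scale from 0% to 100%.

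Within single genes, the 2 KD animals differed by a median of 15.4 points in size. They agreed within 10 points in 86 of the 228 genes (37.7%), and differed by more than 20 points in 79 (34.6%) and by more than 40 points in 19. Among all other genes, 84.3% agreed within 10 points and 4.66% differed by more than 20, but those include genes with little methylation. Where both controls were from 80% to under 90%, 54.8% of genes agreed within 10 points and 12.7% differed by more than 20. These shares were 64.5% and 9.40% from 70% to under 80%, and 67.0% and 10.8% from 50% to under 70%. Without recurring values, 31 of the 67 genes (46.3%) agreed within 10 points and 18 (26.9%) differed by more than 20. The SD of the difference between KD 2 and KD 1 was 22.7 points over the 228 genes. It was 14.9 points over the 67 genes without and 25.03 points over the 161 genes with recurring values.

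The ranks of the genes also changed between the animals. The upper quartile was reached or passed by 57 genes in KD 1 and, because of ties, by 70 in KD 2. The 23 genes that did so in both were 40.4% of the KD 1 set and 32.9% of the KD 2 set. At or under the lower quartile there were 57 genes in each animal, of which 20 (35.1%) were shared. A further 7 genes were in the upper set of KD 1 and the lower set of KD 2, and 15 were placed the other way round. The SD of the KD average over genes was 13.4 points. On the scale of that average, the disagreement of KD 1 and KD 2 (the SD of their difference divided by 2) was 11.4 points. In the 67 genes without recurring values these values were 9.41 and 7.44 points. The KD averages thus varied over genes by little more than the disagreement of the animals.

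**Figure D3:**
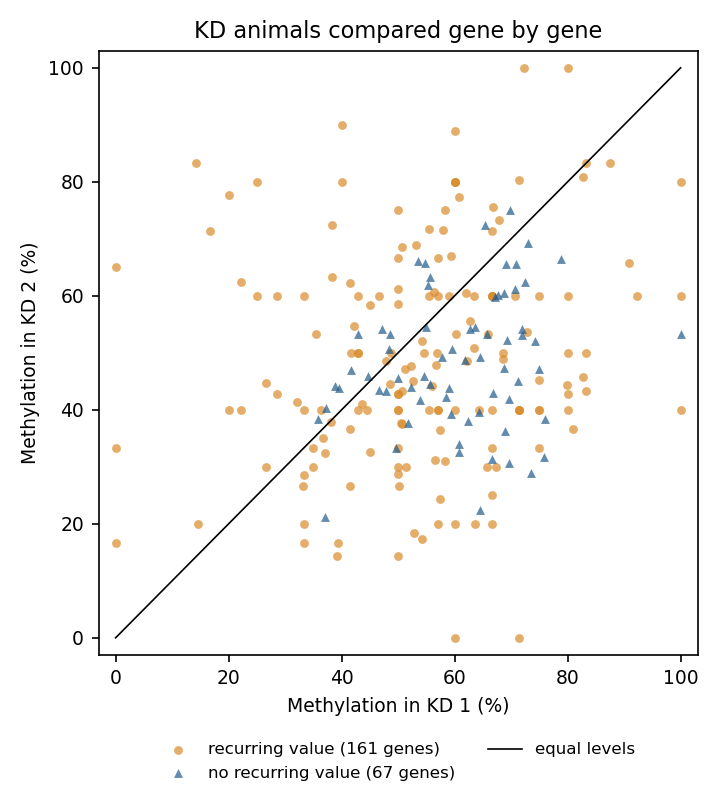
Methylation in KD 1 (x axis) and KD 2 (y axis), both in percent, with 1 point for each of the 228 genes, coloured by whether the row has a recurring value; the line marks equal levels. The points form a broad cloud around the middle with an r of 0.165, and more of them lie below the line (150) than above it (77).

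KD 2 was under KD 1 in 150 genes, above it in 77 and equal in 1. The mean difference of KD 2 from KD 1 was -7.32 points over the 228 genes, and -12.3 points over the 67 without recurring values, of which 51 (76.1%) were lower in KD 2. Over all other genes it was -1.05 points, with 49.2% lower in KD 2. A shift of this kind in the same direction was also seen at lower control levels. It was -3.95 points, with 65.2% of genes lower in KD 2, where both controls were from 80% to under 90%. It was -4.79 points (69.7% of genes) from 70% to under 80%, and -3.19 points (65.8%) from 50% to under 70%. Control 2 was also under control 1 in these ranges, with means of 84.4% against 85.4%, 74.3% against 75.7% and 58.8% against 61.5%. Whether the shift goes with the number of the animal in both groups was not tested. With 1 pair of KD animals no test of the difference between KD 2 and KD 1 was possible. The sequencing details of the study give KD 2 fewer reads than KD 1, and control 2 fewer than control 1, and the part of sequencing depth in the difference was not tested.

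The retained share, the KD average of a gene divided by its control average, had a median of 54.2% over the 228 genes, with quartiles of 45.1% and 63.4% and a range of 8.33% to 90%. Against the control average, the median was 59.1% in KD 1 and 50% in KD 2, or 54.5% ± 6.41 (SD, n = 2). Without recurring values the median over genes was 56.3%, with 66.0% in KD 1 and 51.2% in KD 2. The genes with recurring values had a median of 52.4%. These medians lie within the SD between the KD animals of each other.

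For comparison, the same measures were taken in genes in which both controls were in a lower class. The 221 genes from 80% to under 90% had a KD level of 53.9% in KD 1 and 49.99% in KD 2. The 234 genes from 70% to under 80% had 48.6% in KD 1 and 43.8% in KD 2, and the 657 genes from 50% to under 70% had 37.8% in KD 1 and 34.7% in KD 2. The KD level of the almost fully methylated genes, 56.1% and 48.7%, was thus close to that of the class just below. The control average was 96.9% in the former and 84.9% in the latter, but the controls had chosen the genes. In the genes chosen by a single control, the other control averaged 85.8% (control 2) or 90.04% (control 1). The median retained share was 54.2% in the almost fully methylated genes, and 62.0%, 61.5% and 60.6% in the 3 lower classes. Each class was formed by the controls that also enter the share as its denominator. In the genes chosen by a single control, with the loss measured from the other, the retained share was 61.4% for control 1 as the choosing animal and 57.8% for control 2. The difference between the classes was not tested.

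Over all genes of each class, both KD animals had their lowest median retained share in the top class. In KD 1 it was 59.1%, against 64.8%, 65.6% and 63.6% in the lower classes, and in KD 2 it was 50%, against 59.2%, 59.3% and 57.9%. In KD 1, the median retained share without recurring values was 66.0% in the almost fully methylated genes, against 65.5%, 65.8% and 63.5% in the lower classes. In KD 2 it was 51.2%, against 59.7%, 59.1% and 58.2%. Without recurring values, the lower share in the top class was thus seen in KD 2 alone. These shares too are divided by the control average that formed the classes. Shares per KD animal were not taken from a control that had not chosen, so the order of the classes is not read as a result. Since 1 animal gives no spread, this difference between the KD animals was not tested.

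The agreement of the KD animals was set side by side for the same classes, with no test. The r between KD 1 and KD 2 was 0.165 in the almost fully methylated genes, and 0.219, 0.202 and 0.285 in the lower classes. Over all genes of each class it was thus lowest in the top class, and low in the others. In the top class it was 0.231 without recurring values and 0.339 without genes at 100% in a control. The order of the classes by r is therefore not read as a result. The SD of the difference was 22.7 points, against 14.5, 11.7 and 12.5 points. Without recurring values it was 14.9 points, against 11.2, 9.72 and 9.52 points. The share of genes with recurring values was 70.6%, against 20.4%, 9.83% and 16.9%. Recurring values thus accompanied a wide gap between animals in every class. In the genes that carried them the SD was 25.03 points at the top and 23.5, 23.3 and 21.8 points below.

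**Figure D4:**
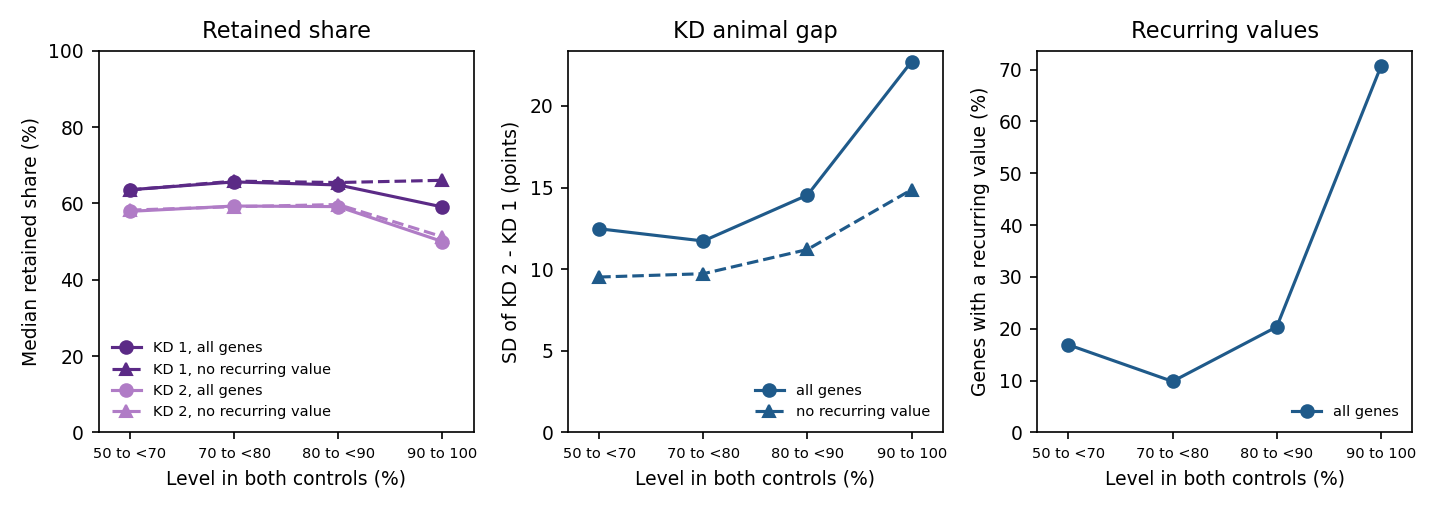
Genes grouped by the level of both controls in percent (x axis): median retained share in percent for KD 1 and KD 2 (left), SD of the difference between KD 2 and KD 1 in percentage points (middle), and percent of genes with a recurring value (right), with dashed lines for genes without recurring values. In the top class the SD was 22.7 points for all genes and 14.9 points without recurring values, and 70.6% of genes had a recurring value.

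A level of exactly 100% was common among the controls of these genes. It was listed for 126 genes in control 1 and 124 in control 2, and for 101 genes in both. In the KD animals, 4 of the 228 genes were at 100% in KD 1 and 2 in KD 2. Of the 101 genes at 100% in both controls, 90 (89.1%) had a recurring value in a KD animal. They averaged 54.0% in KD 1 and 49.4% in KD 2, with an r of 0.0648 between the animals and an SD of the difference of 28.4 points. The 48 genes at 100% in one control averaged 56.6% in KD 1 and 45.4% in KD 2, with an r of 0.331 and an SD of 17.8 points. The 79 genes at 100% in neither averaged 58.4% in KD 1 and 49.9% in KD 2, with an r of 0.339 and an SD of 16.1 points. The KD averages of these groups were 51.7%, 51.0% and 54.1%. Without recurring values, the 11 genes at 100% in both controls averaged 46.4% over the KD animals, the 13 at 100% in one control 56.5% and the 43 at 100% in neither 56.0%. The r between the KD animals was then 0.247, 0.267 and 0.207, so the low r of the first group was not seen in its few genes without recurring values.

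The genes on either side of the threshold differed more in KD 2 than in KD 1. The lower of the 2 controls was from 90% to under 91% in 35 genes, whose mean was 55.6% in KD 1 and 45.6% in KD 2. It was from 89% to under 90% in 30 genes that were not included, with 57.9% in KD 1 and 54.9% in KD 2. Without recurring values there were 14 genes inside, with 61.1% in KD 1 and 48.6% in KD 2, and 25 outside, with 58.6% in KD 1 and 53.0% in KD 2. The lower control was at exactly 90% in 13 genes, and all 13 had a recurring value, with a mean of 48.8% in KD 1 and 38.8% in KD 2. The 3 of these that come first by identifier had KD averages of 61.3%, 28.3% and 32.5%. The genes nearest the threshold on its other side had KD averages of 68.6%, 62.5% and 49.9%.

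The identifiers give a few further features of these genes. The suffix covsplit, after a number, was carried by 190 of the 228 identifiers (83.3%), against 87.1% of all rows. The 228 rows belong to 226 gene models, so that 2 models had a pair of rows each. In one of these models the rows had KD averages of 51.9% and 59.8%, and in the other 45.0% and 57.2%. A further 36 rows of 28 of the models were under 90% in at least one control. Their mean was 37.3% in KD 1 and 37.0% in KD 2, against 61.4% in control 1 and 58.0% in control 2. Of these, 9 were at 80% or more in both controls and 3 were under 10% in both. A total of 17 genes shared all 4 values with another of the 228, in 7 sets, all at 100% in both controls.

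The part of the identifier before the dot is shared by several genes. The 228 genes fell on 128 such prefixes, of which 110 held a single gene and 9 held 5 or more. These 9 carried 99 of the genes. Since the prefixes were picked for the number of such genes on them, nothing is read from that number. The share of rows with recurring values was 28.3% on these prefixes and 20.6% on all others. The 99 chosen genes, 73 of them with recurring values, are among the rows of these prefixes, so nothing is read from this share either. The mean KD average per prefix ran from 46.1% to 60.01%. The 99 genes averaged 55.1% in KD 1 and 49.0% in KD 2, and the 129 genes on other prefixes 56.8% in KD 1 and 48.5% in KD 2, so that both sets differed by less than the KD animals did. Without recurring values, 26 genes on these prefixes averaged 56.2% in KD 1 and 45.5% in KD 2, and 41 genes on others 63.5% in KD 1 and 50.2% in KD 2. The r between KD animals was 0.0363 on the 9 prefixes and 0.242 on the others, and 0.126 and 0.217 without recurring values.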

How the data were processed

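According to the study, WGBS reads were trimmed (Trim Galore), mapped with Bismark to the marbled crayfish genome and deduplicated. Cytosines under a minimum combined coverage and genes with few CpGs were removed. The submitters' processing notes name bedtools v2.24.0. Which genome build was used is not given in the sources used here. From these calls the authors made and deposited 1 table with the average methylation fraction per gene and animal, from 0 to 1, with no scaling stated and 0 missing values among 13478 genes. No read counts, coverage or CpG numbers come with it. Depth per gene is therefore unknown, no counting intervals were computed, and precision was judged from the spread between animals.

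Genes with both control values at 0.9 or more were chosen. The choice of genes, the classes and the measures were made with earlier results of these data known. The animal was the replicate. The difference of more than 0.1 between group averages is the rule of the study and involves no test. Where 1 control had not taken part in the choice, animals were permuted in an exact two-sided test with Benjamini-Hochberg adjustment. Identifiers were printed for the 2 models with the lowest KD average among rows without recurring values, and none of the chosen genes was higher in KD animals. Described without identifier were genes with the highest KD average or the widest gap between KD animals, the lowest and highest of the rows with recurring values, and those next to the threshold. The gene with the smallest gap and the widest gaps among rows with recurring values were added after their values were seen. Alternatives changed the cut-offs, the treatment of recurring or identical rows, and the animals used. Values were computed with Python v3.11.15, pandas v2.3.3 and scipy v1.17.1, and the code was tested on simulated data.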

Additional observations from a re-analysis of the deposited data

How the results depend on the processing

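The KD animals stayed below the controls under all alternatives run for the difference in means. That difference of -44.5 percentage points became -33.7 and -37.6 with genes chosen by control 1 or control 2 and the loss measured from the other, -39.1 without genes at 100% in a control and -39.1 without values that recur in 3 or more rows. Leaving out each animal gave -48.2 to -40.9. The retained share of 54.2% became 61.4% when control 1 chose the genes and control 2 gave the loss, and 50% to 59.1% with one animal left out. The share of genes over 10 points lower (99.1%) became 90.4% and 94.6% with the choice by control 1 or control 2, 96.1% at a difference of over 0.2, and 96.9% to 99.2% with one animal left out. The share with both KD animals under both controls (96.9%) was 98.2% and 95.8% at control cut-offs of 0.85 and 0.95, 94.6% with a cut-off on the control average, and 89.8% and 93.0% with the choice by control 1 or control 2. It was 98.7% without genes at 100% in a control, 100%, 98.5% and 97.9% without values recurring in 3, 5 or 10 rows, and 97.3% to 99.1% with one animal left out.

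The r between KD animals (0.165) was 0.339 without genes at 100% in a control, 0.323 without values recurring in 3 or more rows, 0.300 without those recurring in a KD animal, 0.204 and 0.0886 at control cut-offs of 0.85 and 0.95, 0.125 with a cut-off on the control average, and 0.175 to 0.180 without a control. The SD of their difference (22.7 points) was 12.3 and 14.9 points without values recurring in 3 or 5 rows, and 21.7 to 22.3 without a control. Neither can be had without a KD animal. The interquartile range of the KD average (16.8 points) was compared with an SD between the KD animals of 0.366 points, which few alternatives stayed within. It was 12.2, 12.4 and 13.7 points without values recurring in 3, 5 or 10 rows, 13.2 without those recurring in a KD animal and 13.7 without genes at 100% in a control. It was 14.4 and 18.9 points at cut-offs of 0.85 and 0.95, 16.01 with a cut-off on the control average, 16.4 with the choice by control 1, 16.2 with 1 row per gene model and 19.5 without the prefixes of 5 or more genes. With one animal left out it was 16.4 to 21.7 points. The cause of these changes was not tested. The alternatives on values recurring in a KD animal and on prefixes were chosen after seeing the data.

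Animals carry the numbers 1 and 2 in both groups. How animals of 1 number departed from the means of their groups was correlated at 0.00200 in the whole table and 0.0330 in the 228 genes. A correlation over genes leaves out a shift common to all genes, so it cannot show whether animals of 1 number belong together. In the sequencing details of the study, both animals numbered 2 had fewer reads than those numbered 1. The main values do not pair the animals by number. With the replicate block, the difference was -44.5 points, the retained share 54.1%, the share over 10 points lower in both pairs 96.1% and the share under the same-numbered control in both pairs 97.4%. Depth per gene could not be examined, since the table gives none and the study gives depth per animal only.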
